A study of Rattus norvegicus with 12 samples.

Results

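The contrast described here asks whether methylmalonic acid (MMA) and folic acid (FA) acted additively on the transcripts of rat H9c2 cells. For each gene it is the effect of MMA in the presence of FA (MMA+FA minus FA) minus the effect of MMA in its absence (MMA minus control), on group means of log2(TPM + 1). TPM is a length-scaled share of a library's total. Genes entered where their mean over all 12 libraries was at least 1 TPM, which kept 12263 of 30562 genes. There were 12 libraries in 4 groups of 3, from cells that received no compound (control), MMA, FA, or MMA together with FA (MMA+FA). All were of the line H9c2, derived from embryonic rat heart and labelled cardiomyocytes, and all were sequenced as polyadenylated RNA. Neither the doses nor the times of exposure are stated in the labels, and nothing in them tells whether the libraries of a group came from separate cultures, so p-values measure only the spread between these samples, which may be technical. A positive interaction means that MMA+FA and control cells together stood above FA and MMA cells. A negative interaction means the opposite.

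MMA is an organic acid formed on the route from propionate to the citric acid cycle, and it accumulates when the cobalamin-dependent mutase of that route fails. Folic acid enters the folate cycle, which supplies carbon units for thymidylate, purines and the remethylation of homocysteine. Cobalamin is also the cofactor of methionine synthase, so the 2 routes share a cofactor. Proliferating cells build the enzymes of DNA synthesis and then the kinases, cyclins and motors of mitosis in a fixed order of the cell cycle. Lysosomes are acidified by a proton pump, the V-ATPase, and carry on their surface the Rag GTPases, Ragulator and folliculin, which report amino acid supply to the kinase mTORC1.

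The libraries of a group were alike, with Pearson's r across genes of 0.9874 to 0.9925 within groups. The median SD of a gene on the log2 scale was 0.0631 in control, 0.0709 in MMA, 0.0957 in FA and 0.0773 in MMA+FA libraries. Of 14 cardiomyocyte markers only Tnnt2 and Nkx2-5 were abundant enough to be tested, and Myh6, Myh7, Myl7 and Nppa stayed at or below 0.32 TPM in every library. Their summed level was 25.8 to 32.3 TPM in control, 32.4 to 35.1 in MMA, 56.4 to 59 in FA and 78.8 to 98.1 in MMA+FA libraries, most of it Tnnt2. Of 12 skeletal myoblast markers 7 were tested, with a summed level of 601 to 610 TPM in control, 552 to 579 in MMA, 561 to 638 in FA and 483 to 520 in MMA+FA libraries, and Pax7 was listed at 0 throughout. Markers of fibroblasts and mesenchyme summed to between 11400 and 15000 TPM. Endothelial, leukocyte and epithelial markers each summed to at most 42.5 TPM. None of the tested markers of these 6 lists had a called interaction in limma. At an unadjusted p under 0.05 there were 2163 of all 12263 tested genes. Among the markers there were 5 of 10 for fibroblasts and mesenchyme (1 positive, 4 negative) and 2 of 7 for skeletal myoblasts (2 negative). There were 0 of 2 for cardiomyocytes, 1 of 2 each for leukocytes (negative) and endothelium (positive), and 1 of 1 for epithelium (negative). The part of the marker levels in the results below was not tested. In bulk RNA a change in the kinds of cells cannot be told apart from a change within them.

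The interaction was called for 295 genes, which is 2.41% of those tested (limma, Benjamini-Hochberg adjusted p under 0.05). It was positive for 115 of them (0.938%) and negative for 180 (1.47%). At an unadjusted p under 0.05 there were 2163 genes. The departures were small. The median size among called genes was 0.42 on the log2 scale, the smallest was 0.18, and 4 called genes reached 1. The median standard error over all tested genes was 0.10, and the 95% interval of the median gene reached 0.22 to either side of its estimate, so the smallest called departures were near the limit of these 12 libraries. For comparison, MMA was called for 20.4% of genes without FA and for 10.5% with FA, and FA for 12.4% without MMA and for 13.7% with MMA.

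Across the 12263 genes, which are not independent replicates, the effect of MMA with FA was loosely related to its effect without FA. The 2 effects share no library, and error in each weakens the relation to an extent that was not tested. Pearson's r was 0.23, Spearman's rho was 0.31 and 66.4% of genes had the same sign (62.2% under median-ratio scaling). The effect of FA with and without MMA had an r of 0.27, a rho of 0.34 and the same sign in 65.1% (62.4% under median-ratio scaling). Of the variation between the 4 group means, 39.3% lay along the average effect of MMA, 39.5% along that of FA and 21.2% along the interaction. Sampling error was not removed from these shares. The median size of the interaction over all tested genes was 0.11, close to its median standard error of 0.10. Among the called genes the effect of MMA had opposite signs with and without FA in 261 of 295, a count that the choice of genes by this contrast favours. In 36 of them MMA was called in both states with opposite signs. The effect of FA had opposite signs in 217 of the 295, and in 74 more it had the same sign and was larger with MMA. The choice of genes by this contrast favours opposite signs here too. FA was called for 231 of the 295 genes in the presence of MMA and for 108 in its absence. MMA was called for 135 of them in the presence of FA and for 193 in its absence.

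**Figure D1:**
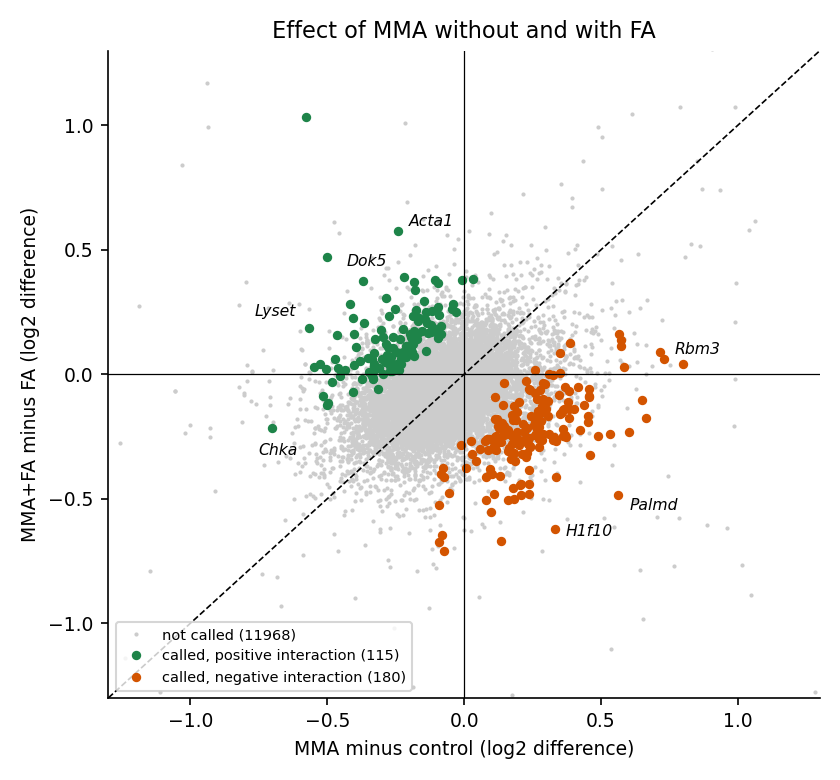
Each point is 1 of the tested genes, with the log2 difference of MMA against control on the horizontal axis and of MMA+FA against FA on the vertical axis. The dashed line marks equal effects. The 115 genes with a called positive interaction lie above it and the 180 with a called negative interaction below it, most of them in the quadrants where the 2 effects have opposite signs. The axes end at 1.3, which leaves out 62 genes, 2 of them called.

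To say where a departure lay, the variation between the 4 group means of each gene was divided. A gene was put with a group where at least 80% of that variation lay in this group against the other 3, and called crossed where at least 80% lay along the interaction itself, so that control and MMA+FA stood together against MMA and FA. The remaining genes were spread over several groups. The MMA group stood apart in 47 of the 295 called genes (15.9%, against 7.43% of all tested genes). The MMA+FA group stood apart in 46 (15.6%, against 10.9%), and control in 26 (8.81%, against 15.7%). The FA group stood apart in 2 (0.678%, against 6.3%). The pattern was crossed in 59 (20%, against 4.43%) and spread over several groups in 115 (39%, against 55.2%). The shares over the called genes are descriptions, since the crossed pattern and the call use the same contrast. They also moved with the scaling: of 326 genes called under median-ratio scaling, MMA stood apart in 69 and MMA+FA in 49. Where MMA stood apart, its mean lay above the other groups in 24 genes and below them in 23. Where MMA+FA stood apart, its mean lay below the others in 39 genes and above them in 7.

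**Figure D2:**
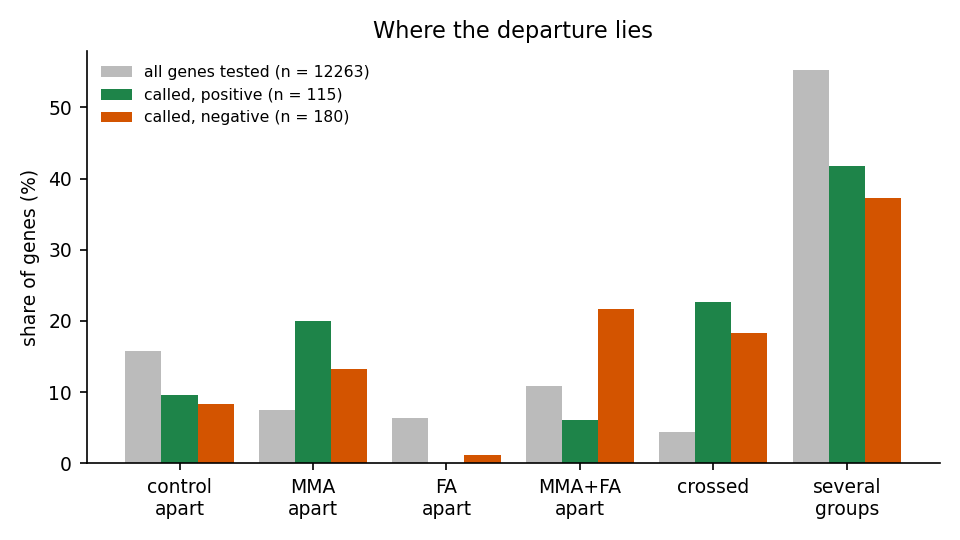
Bars give the share of genes in percent by the place of the departure, for all 12263 tested genes, the 115 called genes with a positive interaction and the 180 with a negative interaction. Genes with MMA+FA apart make up 21.7% of the negative and 6.09% of the positive called genes, and genes with MMA apart 13.3% and 20%.

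**Figure D3:**
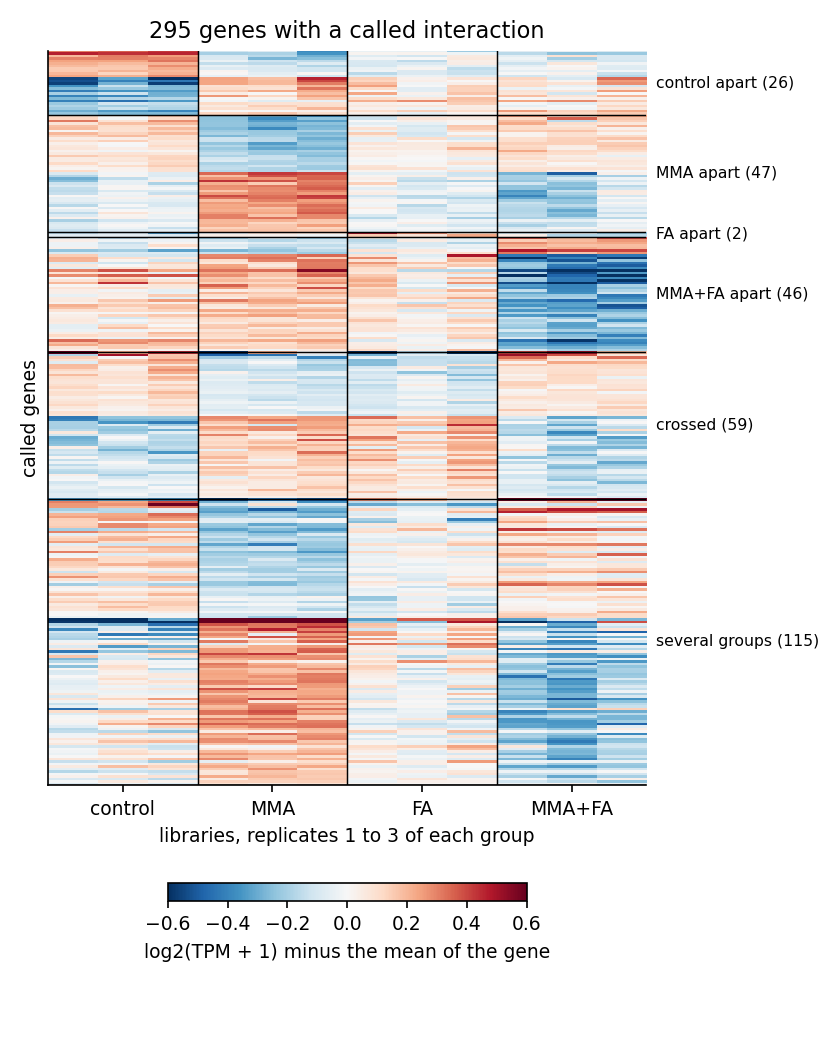
Rows are the 295 called genes, ordered by the place of the departure, and columns the 12 libraries in 4 groups of 3. Colour gives log2(TPM + 1) minus the mean of the gene, from blue (lower) to red (higher). Blocks of the 47 genes with MMA apart and the 46 with MMA+FA apart show a single group differing from the other 3.

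Of the gene lists, that of mitosis held the most called genes. As the background for this list and those below, 0.938% of tested genes were called positive and 1.47% negative. At an unadjusted p under 0.05 the background was 2163 of 12263 genes. Of 41 genes of G2/M and mitosis, 21 had a called negative interaction and 0 a positive one, 36 had an unadjusted p under 0.05, all negative, and the estimate was below 0 in all 41, against 5965 below and 6298 above 0 among all tested genes. The median interaction of the list was -0.38, against 0.01 over all tested genes. The list was higher in MMA than in control cells (median 0.19 on the log2 scale), and lower in MMA+FA than in FA cells (-0.20). FA moved the list by a median of -0.11 without MMA and of -0.50 with MMA. The mean level of the list, relative to all libraries, was 0.22 to 0.24 in the 3 MMA libraries and -0.35 to -0.14 in the 3 MMA+FA libraries, while control (0.01 to 0.10) and FA libraries (-0.07 to -0.01) lay between. The 4 groups did not overlap in this mean.

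Cdk1, the kinase that drives entry into mitosis, measured 138, 148 and 148 TPM in control, 163, 161 and 169 in MMA, 133, 129 and 135 in FA, and 107, 107 and 119 in MMA+FA cells. The MMA libraries were the highest and the MMA+FA libraries the lowest, with no overlap between any of the groups. Its interaction was -0.43 (SE 0.07, 95% interval -0.58 to -0.29, adjusted p = 0.0121). Dlgap5, a spindle assembly factor, measured 61.2, 65.3 and 68.4 TPM in control, 79.3, 76.7 and 80.2 in MMA, 63.4, 59.3 and 62.8 in FA, and 53.9, 50.3 and 55.4 in MMA+FA cells. It had the same order, with control and FA overlapping, and an interaction of -0.49 (SE 0.07, adjusted p = 0.0112). Cdca3, which promotes destruction of the mitotic inhibitor WEE1, measured 86.0, 96.1 and 94.7 TPM in control, 115, 117 and 123 in MMA, 91.2, 89.5 and 94.9 in FA, and 80.7, 78.8 and 88.4 in MMA+FA cells. Here the MMA group alone stood apart (interaction -0.51, SE 0.08, adjusted p = 0.0118). Nusap1, which bundles spindle microtubules, showed the other form. Its level was 70.9, 76.2 and 81.4 TPM in control, 85.0, 80.7 and 78.1 in MMA, 68.7, 69.2 and 64.1 in FA, and 51.6, 48.9 and 53.9 in MMA+FA cells. Only the MMA+FA libraries stood apart from the rest (interaction -0.47, SE 0.08, adjusted p = 0.015). The spindle factor Tpx2 (-0.49), the chromosomal passenger kinase Aurkb (-0.51), the cytokinesis factor Racgap1 (-0.38) and the mitotic regulator Pimreg (-0.78) had called interactions of the same sign. The calls of all these genes held with any 1 library left out.

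Other called members held less firmly. The cyclin B2 gene Ccnb2, at 71.2, 79.8 and 74.7 TPM in control, 93.9, 97.3 and 101 in MMA, 78.9, 71.2 and 78.6 in FA, and 71.5, 71.6 and 77.2 in MMA+FA cells, had MMA apart and an interaction of -0.42 (SE 0.08, adjusted p = 0.0205). Its call was lost without control replicate 1 or 3, MMA replicate 3, FA replicate 1 or MMA+FA replicate 2. The topoisomerase gene Top2a (-0.40) and the APC/C activator gene Cdc20 (-0.46) had MMA+FA apart, and their calls were kept in 3 and 5 of the 12 fits that leave out a library. Mki67 and Plk1 did not pass, with interactions of -0.34 (95% interval -0.62 to -0.07) and -0.35 (-0.57 to -0.14). The number of called members of the list lay between 7 (without FA replicate 1) and 27 (without MMA+FA replicate 3). It was 8 without control replicate 1, MMA replicate 3 or MMA+FA replicate 2, 9 without MMA+FA replicate 1, 10 without control replicate 3, 11 without MMA replicate 1 and 12 without MMA replicate 2.

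Promoters of mitotic genes are known for a short element with the core TTTGAA, the cell cycle genes homology region, next to CCAAT boxes. Stretches of 150 bases before the start are shown for 3 called members that hold both elements, from RefSeq (GRCr8, a later build than the mRatBN7.2 of the expression values). Capitals mark TTTGAA as well as each CCAAT box on either strand, and each sequence ends at the base before the start.
Cdk1 (GRCr8 chr20:19265143-19265292, plus strand): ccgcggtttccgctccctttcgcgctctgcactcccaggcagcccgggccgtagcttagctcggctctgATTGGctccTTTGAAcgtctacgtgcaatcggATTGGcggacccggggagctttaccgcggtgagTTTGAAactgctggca
Prc1 (GRCr8 chr1:143659331-143659480, plus strand): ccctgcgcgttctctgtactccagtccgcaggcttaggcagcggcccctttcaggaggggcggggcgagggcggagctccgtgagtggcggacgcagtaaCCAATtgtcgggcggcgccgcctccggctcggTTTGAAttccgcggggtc
Ccnb2 (GRCr8 chr8:79981659-79981808, minus strand): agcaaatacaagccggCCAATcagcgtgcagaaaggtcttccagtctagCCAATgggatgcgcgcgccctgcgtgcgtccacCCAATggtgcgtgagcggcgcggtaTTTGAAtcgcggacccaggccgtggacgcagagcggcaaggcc
In the 250 bases before the start, on either strand, TTTGAA was present in 15 of 35 promoters of the mitotic list (42.9%) that could be matched by symbol, against 10.4% of the 9232 matched promoters of tested genes and 16% of all 27456 promoters. CCAAT was present in 27 of the 35 (77.1%), against 36.5% and 34.3%. Among all called genes with a negative interaction, TTTGAA was present in 25 of 141 (17.7%) and CCAAT in 59 (41.8%). Among those with a positive interaction, the shares were 10 of 88 (11.4%) and 24 of 88 (27.3%). TTTGAA was also present in 7 of 21 promoters (33.3%) of the Rag, Ragulator, folliculin and GATOR list, whose called interactions were positive, and CCAAT in 7 of these 21 (33.3%). The motifs were chosen with the results known, and a match of letters is a description only.

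**Figure D4:**
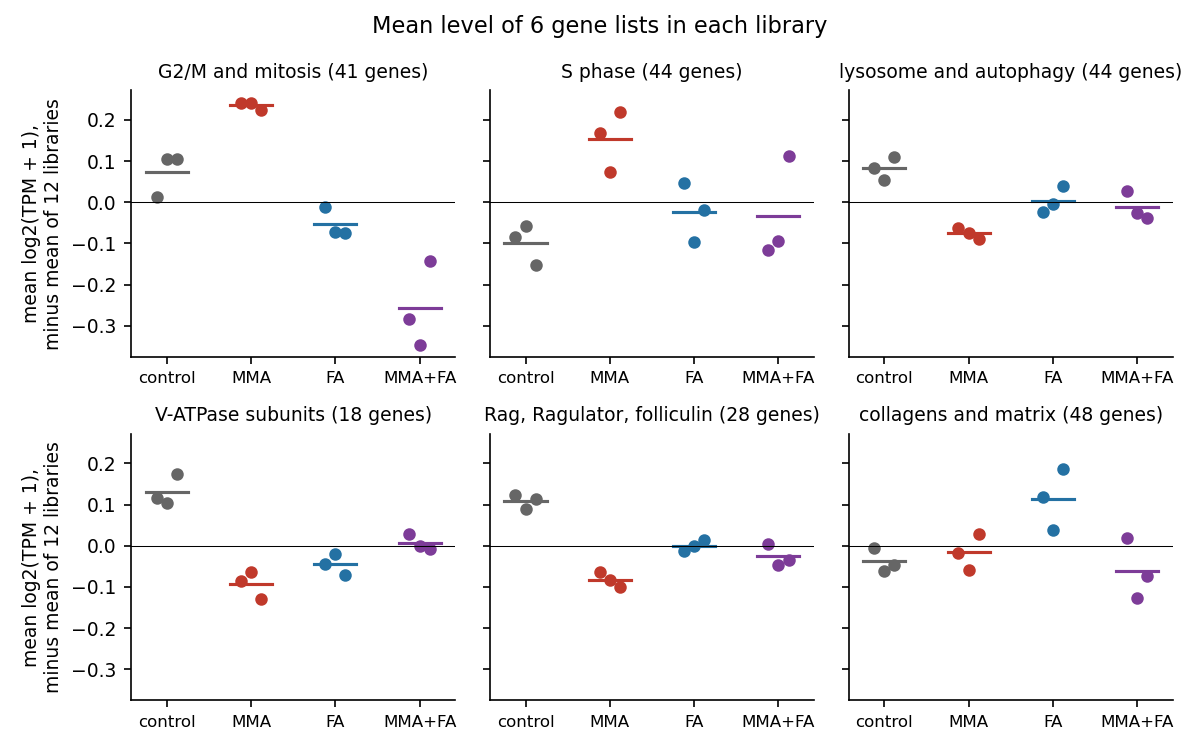
Points are libraries and bars are group means of the average log2(TPM + 1) over the members of 6 lists, minus the mean of all 12 libraries. The G2/M list is highest in MMA (0.22 to 0.24) and lowest in MMA+FA libraries (-0.35 to -0.14). The V-ATPase list is highest in control (0.10 to 0.17) and lowest in MMA libraries (-0.13 to -0.06).

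Genes of DNA synthesis departed in the same direction by less. Of 44 S phase genes, 6 had a called negative interaction and 0 a positive one (19 and 0 at an unadjusted p under 0.05), 43 had an estimate below 0, and the median was -0.24. Among all tested genes, 1.47% were called negative, and 2163 of 12263 had an unadjusted p under 0.05. The list was higher in MMA than in control cells (median 0.23), at -0.02 in MMA+FA against FA, at 0.06 in FA against control and at -0.17 in MMA+FA against MMA. Rpa2, a subunit of the protein that coats single-stranded DNA, measured 37.5, 38.3 and 38.2 TPM in control, 43.5, 40.7 and 44.2 in MMA, 33.3, 35.3 and 34.2 in FA, and 29.5, 27.3 and 29.8 in MMA+FA cells. All 4 groups were separate (interaction -0.40, SE 0.07, adjusted p = 0.0146), and the call held with any 1 library left out. Tk1, the thymidine salvage kinase, followed another order. It measured 27, 31.8 and 25.2 TPM in control, 47.5, 45.4 and 55.5 in MMA, 44.4, 40.7 and 42.4 in FA, and 43.8, 37.4 and 51.0 in MMA+FA cells. Control cells stood below the other 3 groups, so that either compound alone raised it (0.80 with MMA and 0.59 with FA). The mean of the pair was no higher than that of MMA alone, and the pair overlapped with FA (interaction -0.76, SE 0.16, adjusted p = 0.0292). Its call held in 5 of the 12 fits with a library left out. The ribonucleotide reductase genes Rrm1 (-0.29) and Rrm2 (-0.45) had MMA apart, and the clamp loader genes Rfc2 (-0.47) and Rfc5 (-0.39) were also called, each in 4 or fewer of the 12 fits. Tyms, which makes thymidylate, had an interaction of -0.40 (95% interval -0.66 to -0.13) and did not pass. The list held between 1 and 9 called members with 1 library left out. It was 1 without control replicate 3, MMA replicate 3, FA replicate 1 or MMA+FA replicate 1 or 2, and 2 without control replicate 1 or 2 or MMA replicate 1. It was 3 without MMA replicate 2, and 9 without MMA+FA replicate 3.

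Centromere, recombination and chromatin genes, taken from lists added after the results were seen, showed the same sign. For that sign, 1.47% of all tested genes were called. Of 45 centromere and kinetochore genes 12 had a called negative interaction and 0 a positive one (27 and 0 at an unadjusted p under 0.05, median -0.34). Spc24, a subunit of the microtubule-binding NDC80 complex, measured 55.9, 64.0 and 59.6 TPM in control, 71.7, 82.7 and 80.9 in MMA, 63.9, 64.8 and 58.1 in FA, and 55.1, 54.8 and 54.9 in MMA+FA cells (interaction -0.56, SE 0.09, adjusted p = 0.0139). Knstrn and Cenpt, both of the kinetochore, had interactions of -0.51 and -0.63. Of 36 genes of the Fanconi pathway and homologous recombination 5 were called negative and 0 positive (14 and 1 at an unadjusted p under 0.05, median -0.21), among them Bard1, Fanci and Rad51c, whose calls were kept in 2, 5 and 3 of the 12 fits with a library left out. The linker histone gene H1f10 had an interaction of -0.95 (SE 0.16, adjusted p = 0.0146). It measured 70.9, 59.1 and 59.2 TPM in control, 78.2, 78.5 and 81.4 in MMA, 67.9, 60.8 and 90.1 in FA, and 47.2, 44.9 and 47.2 in MMA+FA cells. The MMA+FA libraries stood below all others, and FA replicate 3 was the highest of the 12. H1f0, the linker histone of slowly dividing cells, measured 400, 448 and 409 TPM in control, 562, 571 and 589 in MMA, 488, 463 and 519 in FA, and 462, 448 and 471 in MMA+FA cells (interaction -0.54, SE 0.07, adjusted p = 0.00927). It was highest in MMA cells. H3f3b, which encodes the replication-independent histone H3.3, measured 697, 734 and 752 TPM in control, 917, 922 and 898 in MMA, 773, 798 and 782 in FA, and 779, 766 and 800 in MMA+FA cells (interaction -0.33, SE 0.05, adjusted p = 0.0116). MMA alone stood apart, with all 3 libraries above the other 9. Of the 16 tested histone genes these 3 were called. The calls of Spc24, Knstrn, Cenpt and the 3 histone genes held with any 1 library left out.

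Lysosomal genes departed in the opposite direction, in which 0.938% of all tested genes were called. Of 44 genes of the lysosome and autophagy list, 9 had a called positive interaction and 0 a negative one (18 and 1 at an unadjusted p under 0.05), with 32 estimates above 0 and a median of 0.14. The list was lower in MMA than in control cells (median -0.15, against -0.07 over all tested genes) and at -0.01 in MMA+FA against FA. Npc1, which exports cholesterol from lysosomes, measured 28.0, 27.9 and 28.8 TPM in control, 20.4, 19.8 and 18.7 in MMA, 23.9, 22.8 and 22.7 in FA, and 25.3, 23.3 and 21.9 in MMA+FA cells. Control libraries were the highest and MMA libraries the lowest, with FA and MMA+FA overlapping between them (interaction 0.53, SE 0.08, 95% interval 0.35 to 0.70, adjusted p = 0.0116). Lamp1, a main membrane protein of lysosomes, measured 596, 599 and 611 TPM in control, 517, 523 and 506 in MMA, 552, 550 and 567 in FA, and 610, 603 and 566 in MMA+FA cells. It was lowest in MMA cells, while MMA+FA cells overlapped with control (interaction 0.31, SE 0.05, adjusted p = 0.0128). The calls of Npc1 and Lamp1 held with any 1 library left out.

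Among the other called genes of the list were the channel gene Mcoln1 (0.36), the peptidase gene Tpp1 (0.36), the autophagosome genes Gabarap and Map1lc3b (0.36 each) and the progranulin gene Grn (0.25). The calls of these 5 genes held in 2 to 7 of the 12 fits. The transcription factor genes Tfeb, Tfe3 and Mitf, which act on lysosomal genes, had interactions of -0.14, -0.14 and 0.04 and did not pass. Outside the list, and chosen after their values were seen, Lyset, Cd63 and Gpnmb were called. Lyset, which is needed for the mannose-6-phosphate tag of lysosomal enzymes, measured 22.2, 21.1 and 23.5 TPM in control, 14.4, 16.3 and 13.6 in MMA, 15.8, 16.8 and 16.3 in FA, and 18.4, 20.8 and 17.0 in MMA+FA cells (interaction 0.75, SE 0.11, adjusted p = 0.0112). Control was highest and either compound alone lowered it, with MMA+FA between. Cd63, a tetraspanin of late endosomes, measured 2993, 3002 and 2963 TPM in control, 2687, 2557 and 2654 in MMA, 2720, 2800 and 2625 in FA, and 3133, 3092 and 2973 in MMA+FA cells. The pattern was crossed, with both single treatments below both other groups (interaction 0.36, SE 0.05, adjusted p = 0.0112). The list held 3 called members without control replicate 1 or 3, MMA replicate 3, FA replicate 1 or MMA+FA replicate 2. It held 4 without MMA replicate 2 or MMA+FA replicate 1, and up to 11, without FA replicate 2.

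The proton pump and the nutrient-sensing complexes on the lysosome, both lists added after the results were seen, moved the same way. Of all tested genes, 0.938% were called positive. Of 18 V-ATPase subunit genes, 6 had a called positive interaction and 0 a negative one (13 and 0 at an unadjusted p under 0.05), 17 had an estimate above 0, and the median was 0.29. The list was lower in MMA than in control cells (median -0.20) and in FA than in control cells (-0.15), and was at 0.09 in MMA+FA against FA. Atp6v0b, of the membrane ring of the pump, measured 110, 105 and 115 TPM in control, 76.8, 82.7 and 78.4 in MMA, 87.7, 86.7 and 82.3 in FA, and 95.5, 101 and 90.3 in MMA+FA cells. Control was highest, MMA+FA next and both single treatments lowest (interaction 0.62, SE 0.07, 95% interval 0.47 to 0.78, adjusted p = 0.00849). Atp6v0d1, of the stalk, measured 138, 133 and 137 TPM in control, 118, 116 and 118 in MMA, 137, 137 and 143 in FA, and 158, 147 and 146 in MMA+FA cells. MMA stood below the rest (interaction 0.32, SE 0.06, adjusted p = 0.0147). The calls of Atp6v0b and Atp6v0d1 held with any 1 library left out. Atp6v1c1 (0.39) lost its call without control replicate 3 or FA replicate 1. Atp6v1b2 (0.30), Atp6v0c (0.34) and Atp6v0e1 (0.51) were called in 7, 6 and 3 of the 12 fits. The list held 2 called members without control replicate 3 or FA replicate 1. It held 3 without control replicate 1 or MMA replicate 2 or 3, 4 without MMA+FA replicate 2 and 9 without FA replicate 2.

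Of 28 genes of the Rag, Ragulator, folliculin and GATOR complexes, 7 had a called positive interaction and 0 a negative one (10 and 0 at an unadjusted p under 0.05), with a median of 0.13. The share called positive over all tested genes was 0.938%. Rragc, a Rag GTPase, measured 102, 107 and 110 TPM in control, 85.7, 82.9 and 80.0 in MMA, 92.5, 90.1 and 91.1 in FA, and 97.2, 96.7 and 92.7 in MMA+FA cells. All 4 groups were separate, in the order control, MMA+FA, FA and MMA (interaction 0.42, SE 0.06, adjusted p = 0.0112), and the call held with any 1 library left out. Flcn, which encodes folliculin, a GTPase activator for Rragc, measured 26.3, 25 and 24.6 TPM in control, 17.9, 16.8 and 17.6 in MMA, 23, 20.7 and 22.9 in FA, and 21.8, 20.6 and 20.0 in MMA+FA cells (interaction 0.43, SE 0.08, adjusted p = 0.0181). MMA was lowest and control highest. Its partner Fnip1 measured 20.0, 20.7 and 21.8 TPM in control, 14.8, 15.1 and 12.1 in MMA, 15.6, 15.5 and 13.6 in FA, and 15.2, 15.5 and 15 in MMA+FA cells (interaction 0.58, SE 0.11, adjusted p = 0.0216). Control alone stood apart, above all other libraries. Flcn lost its call without control replicate 1 or MMA replicate 2, and Fnip1 without control replicate 1 or 3 or MMA+FA replicate 2. Rraga (0.39), Lamtor1 (0.32), Lamtor5 (0.28) and the folliculin-like complex gene Smcr8 (0.36) were called in 6, 3, 2 and 2 of the 12 fits. Mtor and Rptor had interactions of 0.00 and 0.05. The list held 1 called member without control replicate 1 and 2 without control replicate 3 or MMA replicate 2. It held 3 without MMA replicate 3, FA replicate 1 or MMA+FA replicate 2, and 4 without control replicate 2 or MMA+FA replicate 1.

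Many lysosomal promoters carry an E-box of the form TCACGTG, the core of the CLEAR element that TFEB and its relatives bind. Stretches of 150 bases before the start are shown for 4 called genes with a positive interaction that hold it, from RefSeq (GRCr8). Capitals mark TCACGTG on either strand.
Lamp1 (GRCr8 chr16:83075064-83075213, minus strand): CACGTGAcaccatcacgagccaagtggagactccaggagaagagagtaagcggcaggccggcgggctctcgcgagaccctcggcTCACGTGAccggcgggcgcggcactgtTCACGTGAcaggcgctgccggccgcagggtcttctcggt
Atp6v0d1 (GRCr8 chr19:50357249-50357398, minus strand): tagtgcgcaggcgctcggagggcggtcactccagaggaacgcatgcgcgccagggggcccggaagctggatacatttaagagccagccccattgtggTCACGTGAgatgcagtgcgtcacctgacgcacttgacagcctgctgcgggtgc
Mlx (GRCr8 chr10:86519736-86519885, plus strand): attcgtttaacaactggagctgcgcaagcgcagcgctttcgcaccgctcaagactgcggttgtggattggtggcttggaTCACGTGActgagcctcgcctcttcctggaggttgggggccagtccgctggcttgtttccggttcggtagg
Slc38a7 (GRCr8 chr19:9215228-9215377, plus strand): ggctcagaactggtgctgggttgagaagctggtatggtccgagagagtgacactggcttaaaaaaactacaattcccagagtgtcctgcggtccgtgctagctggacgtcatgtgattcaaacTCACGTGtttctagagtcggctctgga
Mlx encodes a partner of glucose-sensing transcription factors and Slc38a7 a lysosomal glutamine carrier, with called interactions of 0.46 and 0.49. The call of Mlx held with any 1 library left out, and that of Slc38a7 was lost without control replicate 1 or 3. In the 250 bases before the start, on either strand, TCACGTG was present in 15 of 88 matched promoters of called genes with a positive interaction (17%). It was present in 2 of 141 with a negative interaction (1.42%), in 5.05% of the 9232 matched promoters of tested genes and in 3% of all 27456. The 15 genes were Lamp1, Atp6v0d1, Mlx, Slc38a7, Cstb, Gyg1, Fnip1, Dlg1, Gtf2h1, Mfsd1, Get3, Gnpda1, Mcoln1, Tceal1 and Lamtor1, and the 2 were Vgf and Ttk. The shorter CACGTG, which every TCACGTG contains, was present in 18 of the 88 (20.5%) and in 8 of the 141 (5.67%), against 8.42% of tested genes. The lysosome and autophagy list held TCACGTG in 5 of 33 promoters (15.2%) the Rag, Ragulator, folliculin and GATOR list in 3 of 21 (14.3%) and the V-ATPase list in 1 of 14 (7.14%). The mitotic list, with interactions of the other sign, held it in 3 of 35 (8.57%). This motif, too, was chosen with the results known. A match of letters is a description only, and binding by TFEB or any other factor was not tested.

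Control cells stood apart in 26 called genes, with the 3 treated groups together on the other side. Rbm3, an RNA-binding protein induced by cold, measured 236, 257 and 253 TPM in control, 401, 390 and 450 in MMA, 373, 351 and 342 in FA, and 361, 346 and 407 in MMA+FA cells. It rose by 0.73 with MMA and by 0.51 with FA, each against control, and its interaction was -0.67 (SE 0.09, 95% interval -0.87 to -0.46, adjusted p = 0.0112). Chka, the kinase that commits choline to phosphatidylcholine synthesis, measured 59.9, 58.8 and 59.4 TPM in control, 37.4, 37.6 and 33.4 in MMA, 43.5, 43.7 and 42.3 in FA, and 38.3, 36.2 and 36.8 in MMA+FA cells. It fell by 0.70 with MMA and by 0.45 with FA, and in MMA+FA cells it was at the level of MMA cells (interaction 0.49, SE 0.07, adjusted p = 0.0112). The calls of Rbm3 and Chka held with any 1 library left out. Trib1, a pseudokinase that directs proteins to degradation, measured 60.6, 63.0 and 64.3 TPM in control, 90.7, 95.3 and 95 in MMA, 81.5, 77.6 and 89.6 in FA, and 86.7, 85.6 and 96.8 in MMA+FA cells (interaction -0.46, SE 0.08, adjusted p = 0.0176). All libraries with either compound lay above control, and the call was lost without control replicate 1. The matricellular gene Ccn1 had control apart as well (interaction -0.37, SE 0.07, adjusted p = 0.019, lost without control replicate 1 or FA replicate 1). Trib1, Ccn1, Gadd45b (-0.61) and Plk2 (-0.44) were the 4 called among 40 tested immediate early and stimulus response genes, all negative, while the median of that list was 0.06. At an unadjusted p under 0.05, 10 of the 40 were positive and 11 negative, against 2163 of all 12263 genes. Called negative interactions made up 1.47% of all tested genes. Gadd45b, a stress-induced cell cycle gene, was crossed, and Plk2 was spread over several groups. Their calls were kept in 4 and 1 of the 12 fits with a library left out.

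**Figure D5:**
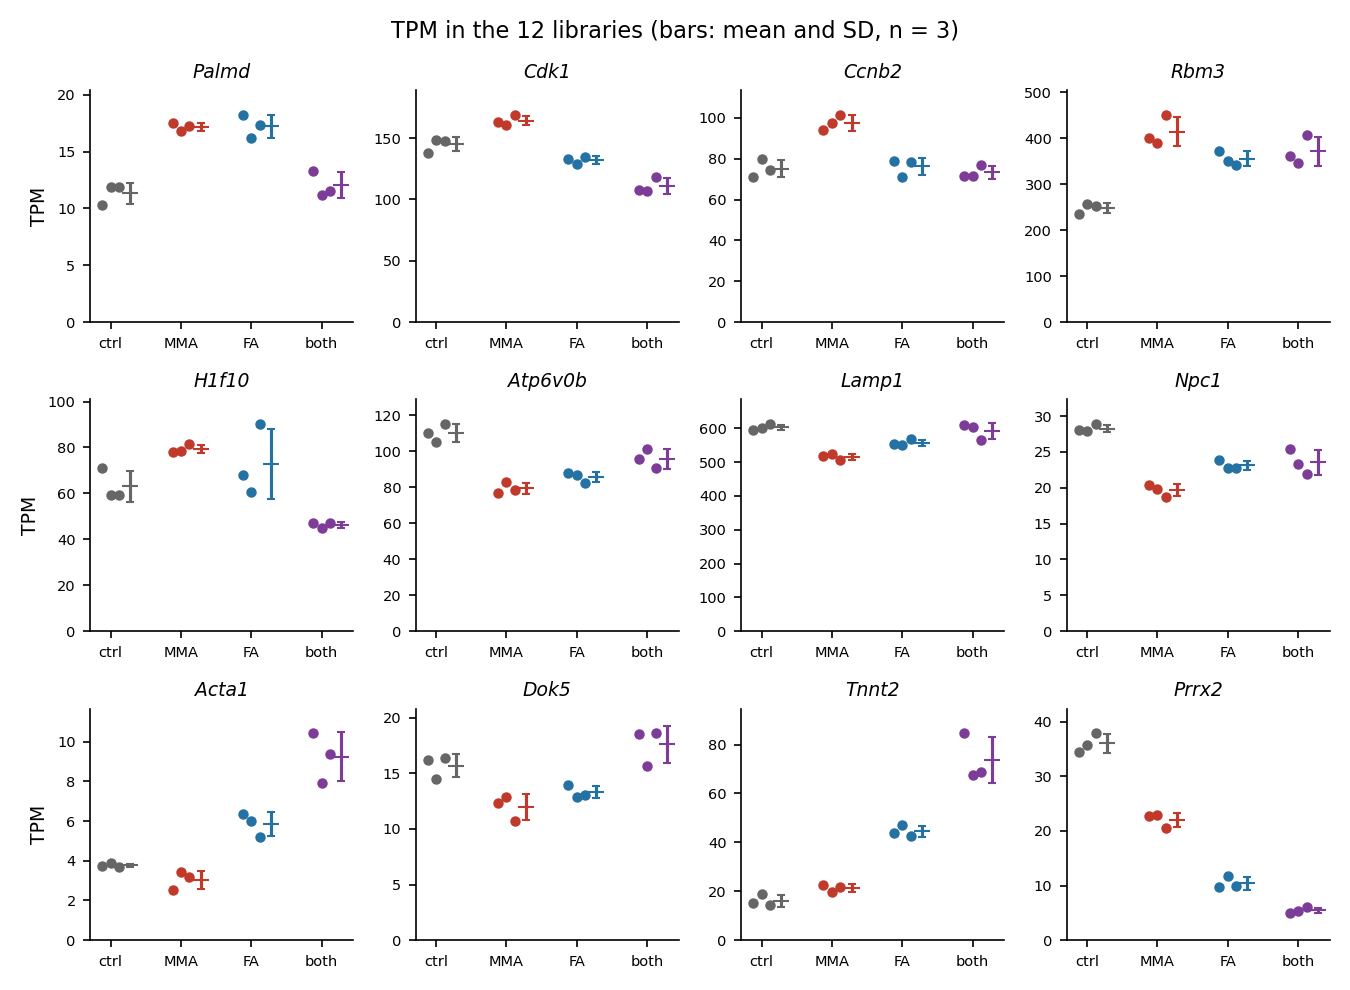
Points are the TPM of the 3 libraries of each group for 12 genes, with the mean and SD (n = 3) beside them, on linear axes from 0. Palmd and Dok5 are crossed, Ccnb2 has MMA apart, Rbm3 has control apart and H1f10 has MMA+FA apart. Tnnt2 and Prrx2 changed with both compounds and had no called interaction.

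MMA cells also stood apart in genes outside the cell cycle and the lysosome. Renbp, an enzyme that binds renin and converts amino sugars, measured 54.4, 58.4 and 58.8 TPM in control, 43.4, 42.3 and 43.2 in MMA, 49.2, 49.8 and 51.9 in FA, and 60.3, 55.3 and 53.8 in MMA+FA cells (interaction 0.57, SE 0.07, adjusted p = 0.00849). MMA libraries lay below the other 9. Fermt2, an integrin activator, measured 172, 174 and 182 TPM in control, 154, 151 and 145 in MMA, 167, 166 and 161 in FA, and 180, 173 and 172 in MMA+FA cells (interaction 0.31, SE 0.05, adjusted p = 0.0155). The calls of Renbp and Fermt2 held with any 1 library left out. Fermt2 was 1 of 5 called positive among 37 genes of integrin adhesion, a list added after the results were seen, with Itga3 (0.50), Vcl (0.33), Rsu1 (0.28) and Kank1 (0.23), and 0 were negative (8 and 1 at an unadjusted p under 0.05). The median of that list was 0.04, and 0.938% of all tested genes were called positive. The calls of Itga3, Rsu1 and Kank1 were kept in 10, 1 and 0 of the 12 fits. Vcl, which encodes vinculin and links adhesions to actin, measured 127, 120 and 124 TPM in control, 111, 108 and 111 in MMA, 138, 135 and 135 in FA, and 154, 151 and 153 in MMA+FA cells. All 4 groups were separate, and MMA lowered it without FA (-0.17) and raised it with FA (0.16), with an interaction of 0.33 (SE 0.05, adjusted p = 0.0112) whose call held with any 1 library left out. Of 24 genes of the Arp2/3 complex and its regulators, also added later, Arpc4 (0.37), Actr2 (0.30) and Washc5 (0.28) were called positive and the inhibitor gene Arpin (-0.34) negative (7 and 1 at an unadjusted p under 0.05). Their calls were kept in 11, 3, 1 and 5 of the 12 fits, in that order.

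MMA+FA cells stood apart in 46 called genes, below the rest in 39. Txnip, an inhibitor of thioredoxin and of glucose uptake, measured 163, 179 and 163 TPM in control, 184, 177 and 183 in MMA, 188, 171 and 189 in FA, and 144, 122 and 126 in MMA+FA cells. Neither compound alone changed it past the threshold (0.11 with MMA and 0.12 with FA), and with FA present it fell by 0.48 with MMA (interaction -0.59, SE 0.09, adjusted p = 0.0112). Tgfbi, a matrix protein induced by TGF-beta, measured 62.0, 61.0 and 56.5 TPM in control, 68.9, 66.2 and 72.1 in MMA, 61.5, 61.0 and 64.9 in FA, and 51.7, 39.9 and 46.1 in MMA+FA cells (interaction -0.65, SE 0.11, adjusted p = 0.0146). Wif1, a secreted Wnt inhibitor, measured 11.2, 10.6 and 11.2 TPM in control, 12.7, 11.1 and 13.4 in MMA, 12, 11.1 and 12 in FA, and 9.03, 7.66 and 7.21 in MMA+FA cells (interaction -0.67, SE 0.12, adjusted p = 0.0164). For both genes the 3 MMA+FA libraries were the lowest of the 12. The calls of Txnip, Tgfbi and Wif1 held with any 1 library left out. Of 48 collagen and matrix genes, the fibrillar collagen genes Col5a2 (-0.27) and Col11a1 (-0.42) were called, both with MMA+FA apart, each in 2 of the 12 fits. The share called negative over all tested genes was 1.47%. The estimate was below 0 in 46 of the 48, with a median of -0.17. Most of these did not pass, among them Col1a1 (-0.34, 95% interval -0.61 to -0.07) and Postn (-0.58, -1.04 to -0.12). At an unadjusted p under 0.05 there were 19 of the 48, all negative, against 2163 of all 12263 genes. The list as a whole did not have MMA+FA apart. Its mean level, relative to all libraries, was highest in FA libraries (0.04 to 0.19). In MMA+FA libraries it was -0.13 to 0.02, overlapping with control (-0.06 to -0.01) and MMA (-0.06 to 0.03). FA moved the list by a median of 0.14 without MMA and of -0.07 with MMA. Glipr1 was among the 7 genes with MMA+FA above the rest, at 69.6, 64.5 and 72.1 TPM in control, 70.3, 67.8 and 66.9 in MMA, 64.9, 66.8 and 62.7 in FA, and 86.7, 83.0 and 83.8 in MMA+FA cells (interaction 0.39, SE 0.07, adjusted p = 0.0147).

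Of 28 tested sarcomere and striated muscle genes, Acta1 and Trim63 were called, both positive, where 2.41% of all tested genes were called. At an unadjusted p under 0.05, 5 of the 28 were positive and 2 negative, and the median was 0.06. Acta1, skeletal actin, measured 3.75, 3.87 and 3.69 TPM in control, 2.54, 3.43 and 3.18 in MMA, 6.37, 6.01 and 5.18 in FA, and 10.4, 7.93 and 9.39 in MMA+FA cells. FA raised it by 0.52 without MMA and by 1.34 with MMA (interaction 0.82, SE 0.15, 95% interval 0.49 to 1.15, adjusted p = 0.0205), and lost its call without control replicate 1 or 3. Trim63, the ubiquitin ligase MuRF1 of muscle atrophy, measured 17.2, 16.7 and 17.8 TPM in control, 14.9, 15.4 and 14.8 in MMA, 17.9, 18.8 and 21.8 in FA, and 26.5, 25.2 and 24.6 in MMA+FA cells. All 4 groups were separate, with MMA lowest and MMA+FA highest (interaction 0.55, SE 0.09, adjusted p = 0.0146), and the call held with any 1 library left out. The endothelin receptor gene Ednra (0.44) had the same order of group means and was called in 3 of the 12 fits. The determination factor Myod1 measured 69.7 to 74.2 TPM in control, 59.0 to 61.4 in MMA, 45.7 to 61.2 in FA and 28.2 to 34.7 in MMA+FA cells, and its interaction of -0.50 (95% interval -0.80 to -0.21) did not pass.

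In the 59 crossed genes the group means of both single treatments lay on one side of the mean and those of control and MMA+FA on the other. Palmd, a membrane-associated paralemmin relative, had the smallest adjusted p of all. It measured 10.3, 11.8 and 11.9 TPM in control, 17.5, 16.8 and 17.2 in MMA, 18.2, 16.2 and 17.3 in FA, and 13.3, 11.2 and 11.6 in MMA+FA cells. Both single treatments lay above both other groups, with no overlap. It rose by 0.56 with MMA and 0.57 with FA against control, and with FA present it fell by 0.49 with MMA (interaction -1.05, SE 0.10, 95% interval -1.28 to -0.82, adjusted p = 0.00332). Dok5, an adaptor of receptor tyrosine kinases, was the reverse, at 16.2, 14.5 and 16.4 TPM in control, 12.3, 12.8 and 10.7 in MMA, 13.9, 12.9 and 13.1 in FA, and 18.5, 15.7 and 18.6 in MMA+FA cells (interaction 0.74, SE 0.12, adjusted p = 0.0121). Mgll, the lipase that ends signalling by 2-arachidonoylglycerol, measured 25.7, 27.7 and 27 TPM in control, 32.9, 33.1 and 35.5 in MMA, 35.1, 31.6 and 35.8 in FA, and 30.8, 27.3 and 26.8 in MMA+FA cells (interaction -0.59, SE 0.09, adjusted p = 0.0121). Lmo4, a LIM-domain cofactor, was at 117, 118 and 118 TPM in control, 139, 138 and 132 in MMA, 131, 125 and 130 in FA, and 119, 102 and 108 in MMA+FA cells (interaction -0.45, SE 0.07, adjusted p = 0.0136). In both genes the single treatments lay above the other groups. The calls of Palmd, Dok5, Mgll and Lmo4 held with any 1 library left out. Il1rl1, the receptor of interleukin-33 and the 1 called gene of 12 tested in the list of chemokines and cytokines, was spread over several groups. It measured 4.35, 4 and 3.43 TPM in control, 6.88, 6.58 and 6.88 in MMA, 5.86, 4.85 and 5.33 in FA, and 5.12, 3.94 and 4.81 in MMA+FA cells (interaction -0.84, SE 0.14, adjusted p = 0.0146), highest with MMA alone. Of all tested genes, 2.41% were called. At an unadjusted p under 0.05, 2 of the 12 genes of that list were positive and 3 negative, against 2163 of all 12263 genes.

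The FA group stood apart in 2 called genes, Gpt2 and Vdr. FA libraries also had the largest spread (median SD 0.0957 on the log2 scale), and its part in this count was not tested. Gpt2, a mitochondrial alanine transaminase, measured 113, 115 and 112 TPM in control, 122, 121 and 118 in MMA, 133, 126 and 140 in FA, and 122, 105 and 106 in MMA+FA cells (interaction -0.35, SE 0.08, adjusted p = 0.0427, kept in 2 of the 12 fits). Vdr, the vitamin D receptor, had an interaction of -0.68 (SE 0.16, adjusted p = 0.0474, kept in 1 of the 12 fits) at 4.76, 3.94 and 3.34 TPM in FA cells.

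In the pathways in which the 2 compounds themselves take part, the share called at the adjusted threshold was near the 2.41% of all tested genes. Of 32 tested genes of folate, one-carbon and methionine metabolism 1 was called. At an unadjusted p under 0.05 there were 15 of the 32, 5 positive and 10 negative, a larger share than the 2163 of all 12263 genes. The called gene was Mat1a, which makes the methyl donor S-adenosylmethionine, at 16.9, 15.4 and 16.7 TPM in control, 12.8, 11.6 and 12.9 in MMA, 14, 16.4 and 16.1 in FA, and 16.8, 20.0 and 17.4 in MMA+FA cells. The MMA group stood below the rest (interaction 0.57, SE 0.11, adjusted p = 0.0216), and the call was lost without control replicate 1 or 3, MMA replicate 2 or FA replicate 1. Of 34 genes of propionate, cobalamin and branched-chain amino acid breakdown the ketone-using enzyme gene Oxct1 was called (0.26), in 1 of the 12 fits, and 7 of the 34 had an unadjusted p under 0.05 (3 positive and 4 negative). The methionine synthase gene Mtr (-0.14, adjusted p = 0.283), the mutase gene Mmut (0.26, adjusted p = 0.315), the cobalamin carrier gene Tcn2 (0.19, adjusted p = 0.285) and the mitochondrial folate enzyme gene Mthfd2 (-0.15, adjusted p = 0.275) did not pass. None was called among 13 mitochondrially encoded genes (median 0.04), 50 nuclear genes of the respiratory chain (0.08), 45 mitochondrial ribosomal proteins (0.00), 42 genes of glycolysis and the citric acid cycle (0.02), 37 proteasome genes (0.01) and 53 cytosolic ribosomal proteins (0.00), in limma at the adjusted threshold. At an unadjusted p under 0.05 there were 1, 11, 4, 8, 1 and 7 in these lists, in that order. At most 1 gene was called in each of the lists of cholesterol and fatty acid synthesis (Fads1), fatty acid oxidation (Ucp2), the ATF4 response (Pycr1) and the p53 pathway (Bid).

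Several of the genes with the largest responses had no called interaction, which does not show that they were additive. The estimates of the average effects of MMA and of FA over both states of the other compound are orthogonal to that of the interaction in this balanced design. The calls are not, since they share the residual variance of each gene, and genes of low variance pass both more readily, so the shares below are descriptions. Of 3695 genes called for the average effect of MMA (30.1% of those tested), 106 (2.87%) had a called interaction, near the 2.41% of all tested genes. Most of the 3695 (3189) were lower with MMA, and under median-ratio scaling 2501 genes were called for this effect. Of the 506 that were higher with MMA on average (4.13% of those tested), 39 (7.71%) had one. In those 506 the interaction had the sign opposite to the effect in 32 of the 39, so that FA made the rise with MMA smaller. Of 3049 genes called for the average effect of FA (24.9% of those tested), 148 (4.85%) had a called interaction, of the same sign as the effect in 129 and of the opposite sign in 19. Over all the genes called for FA the sign was the same in 50.8%, and over those called for MMA in 38.5%. Tnnt2, cardiac troponin T, measured 15, 18.9 and 14.5 TPM in control, 22.7, 19.7 and 21.9 in MMA, 43.8, 47.1 and 42.4 in FA, and 84.6, 67.5 and 68.7 in MMA+FA cells. It had the largest average rise with FA (1.57) among genes called for that effect and above 0 in every library, and an interaction of 0.31 (SE 0.15, adjusted p = 0.288). Prrx2, a mesenchymal homeobox factor, measured 34.4, 35.7 and 37.9 TPM in control, 22.7, 22.9 and 20.5 in MMA, 9.65, 11.7 and 9.85 in FA, and 5.04, 5.39 and 5.98 in MMA+FA cells. Its average effects were -0.75 for MMA and -1.77 for FA, and its interaction was -0.13 (95% interval -0.38 to 0.11, adjusted p = 0.588). Taken on the TPM scale without logarithm, the interaction of Prrx2 was positive and passed (adjusted p = 0.0277), since equal ratios are unequal differences. Smad9, which carries BMP signals, fell on average by 0.66 with MMA and 1.16 with FA, with an interaction of -0.14 (-0.49 to 0.21). Wnt4, a signalling ligand, fell by 0.51 and 1.31, with an interaction of -0.47 (-0.78 to -0.16, adjusted p = 0.113). Edn1, the endothelin precursor, rose by 0.68 with MMA and 0.39 with FA on average, with control as the lowest group and an interaction of -0.63 (-1.02 to -0.23, adjusted p = 0.0947) that did not pass.

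The number of called genes moved with the libraries used: 85 without control replicate 1, 92 without FA replicate 1, 96 without control replicate 3, 109 without MMA replicate 3, 125 without MMA+FA replicate 2, 132 without MMA replicate 2, 154 without MMA replicate 1, 177 without MMA+FA replicate 1, 182 without control replicate 2, and 496 without FA replicate 2. Among the 295 genes, 67 were called in each of the 12 fits with a library left out (28 positive and 39 negative), and all 295 kept their sign in each.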

How the data were processed

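Transcripts were measured in 12 libraries of H9c2 cells, 3 in each of 4 groups, made from polyadenylated RNA with a stranded Illumina kit, per the labels. Per the submitters' processing notes, fastp and HISAT2 were used and the build was mRatBN7.2, with no versions stated. The authors deposited TPM for each gene in a table whose title names RSEM. The sources used here give neither the annotation nor the strand setting. Since TPM does not preserve sequencing depth, depth and counting error are unknown here.

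For genes whose mean was 1 TPM or more, limma 3.58.1 (R 4.3.3; tables were read with data.table, version 1.17.8) fitted a mean for each group to log2(TPM + 1), with a trend of the variance on the mean (8 residual degrees of freedom, prior 4.317). The interaction, the effects of each compound with and without the other, and their averages were contrasts of this fit, each with Benjamini-Hochberg adjustment over all 12263 genes and a threshold of 0.05. The code was tested on simulated data. On this log2(TPM + 1) scale changes of low genes appear smaller than they are. Median-ratio scaling left the median interaction at 0.00, against 0.01 as deposited. Symbols with several loci (Pclaf, Rrm2l1, Actg1l1) can share reads between copies and are uncertain.

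The contrast, the gene lists and the genes known from earlier work were chosen with earlier results of these data known, and 7 lists were added after these results were seen. Lists are described by counts and medians only. Genes were named by a rule: called genes with a highest group mean of at least 5 TPM, the 15 largest estimates in each direction, the 5 with the largest share in each place of departure, up to 3 called members per list, the 5 largest average effects in each direction, and 9 genes from earlier work. Of 18 genes with the largest average effects, 17 were listed at 0 in some library and were replaced by genes above 0 in every library. Other genes were named after their values were seen, among them those whose call held with any 1 library left out. Some genes that the rule or the lists name are not reported here. Promoters came from RefSeq (GRCr8) and were matched by symbol. Alternatives were other scalings, pseudocounts, filters, an additive scale, no trend, array weights, a replicate block, a threshold on the fold, and each library left out in turn. Plots used Python 3.11.15 and matplotlib 3.10.9.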

Additional observations from a re-analysis of the deposited data

Results flagged for a closer look

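Of the 36 called genes in which MMA was called in both states of FA with opposite signs, 10 are among those named by the rule, and the interaction term tested that difference (limma, adjusted p under 0.05). With FA absent MMA raised and with FA present it lowered Palmd (interaction -1.05), Pimreg (-0.784), Csrp2 (-0.749), Dlgap5 (-0.488), Cdk1 (-0.431) and Rpa2 (-0.405). The reverse held for Dok5 (0.744), AABR07040855.1 (0.589), Vcl (0.331) and Actg1l1 (0.328). Csrp2, a LIM protein of smooth muscle, measured 71.0, 79.2 and 72.5 TPM in control, 89.6, 89.6 and 103 in MMA, 90.9, 77.3 and 79.4 in FA, and 73.5, 57.7 and 54.9 in MMA+FA cells. The symbol Actg1l1 belongs to 2 loci that can share reads, and the other locus had an interaction of 0.19 (adjusted p = 0.692). The calls of Csrp2 and Actg1l1 were kept in 7 and 6 of the 12 fits with a library left out, and those of the other 8 genes in all 12.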

How the results depend on the processing

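The 295 called genes became 326 under median-ratio scaling, 332 under quantile normalization, 318 without mitochondrially encoded genes, 284 to 302 with other pseudocounts, and 223 and 347 with a minimum of 0.1 and 5 TPM. Without any filter there were 181 (93 negative), on an additive TPM scale 221, without the trend 223. Array weights, which did not converge, gave 1810 (844 positive, 966 negative). A test against a log2 threshold of 0.2 left 1 (0 positive, 1 negative). Leaving out 1 library gave 85 to 496 genes, 34 to 197 positive and 51 to 299 negative. Positive calls were 39% of all and 48.6% without the filter. With a library left out they were 32.7% (without MMA+FA replicate 3) to 50.2% (without FA replicate 3), with 49.4% without MMA replicate 1. The average effect of MMA was called for 2501 genes under median-ratio scaling, 2078 under quantile normalization, 9 with the threshold, and 2827 to 3902 with a library left out. That of FA was called for 2581 under median-ratio scaling, 5671 with array weights, 101 with the threshold, and 2006 to 3757 with a library left out. The causes were not tested.

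Counts of called list members with 1 library left out were 7 to 27 for mitosis, 1 to 9 for S phase, 3 to 11 for the lysosome, 2 to 9 for the V-ATPase and 1 to 7 for the Rag list. Array weights gave 37, 21, 23, 12 and 12, and the threshold 0 for each. No filter gave 12 for mitosis, 1 for S phase and 4 for Rag, and a minimum of 0.1 TPM gave 4 for Rag. The additive scale gave 1 for S phase and 5 for the lysosome, no trend 3 and 5. The alternatives for these lists were chosen after seeing the data. With a share of 90% in place of 80%, control was apart in 13, MMA in 23, FA in 0 and MMA+FA in 20 genes, 29 were crossed and 210 spread. With 70%, FA was apart in 1 and MMA+FA in 74, 99 were crossed and 18 spread. Under median-ratio scaling control was apart in 33, MMA in 69, FA in 2 and MMA+FA in 49, with 61 crossed and 112 spread. On the additive scale the interaction of Prrx2 reversed to 0.4874 (adjusted p = 0.02769).

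Deviations of same-numbered libraries correlated at -0.124 to 0.107, so no shared effect of the replicate number was seen. These values do not tell whether the samples were paired by design. With a replicate block 214 genes were called, 195 of them among the 295, with 3 of S phase and 4 of Rag.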

Other observations

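The largest departure with a symbol belongs to a locus of uncertain identity. The locus ENSRNOG00000016561 with the symbol Pclaf, a PCNA partner in replication, measured 14.2, 8.63 and 23.4 TPM in control, 47.4, 64.5 and 80.3 in MMA, 23, 37.9 and 38.1 in FA, and 23.1, 26.6 and 23.9 in MMA+FA cells, with an interaction of -2.44 (SE 0.41, adjusted p = 0.0146). The second locus of that symbol had an interaction of -0.69 (adjusted p = 0.106) and was also highest in MMA cells. How reads were divided between these loci was not tested.

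Ribosome biogenesis genes showed a median interaction of 0.07, with 32 of 42 estimates above 0 and 1 called gene, Tsr1. Of all tested genes, 2.41% were called. At an unadjusted p under 0.05, 11 of the 42 were positive and 1 negative, against 2163 of all 12263 genes. Endoplasmic reticulum chaperones and heat shock proteins had a median of 0.07 and 0 called of 36 in limma. At an unadjusted p under 0.05 there were 9 of the 36, 8 positive and 1 negative, beside the same background.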
